A study of Mus musculus with 51 samples.

Results

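Bone morphogenetic proteins (BMPs) and their receptors were followed through limb development in wild-type FVB mouse embryos. The genes are the ligands Bmp2, Bmp3, Bmp4, Bmp5, Bmp6 and Bmp7 and the receptors Bmpr1a, Bmpr1b, Bmpr2 and Acvr1, chosen by name from the gene symbols of the array's probe sets. Of these 10 genes, 9 had a probe set with a single gene symbol, and Bmp3 was not analysed here. The 9 genes carried 24 of the 34958 probe sets with 1 symbol and stood for 9 of the 18194 genes measured. Whole forelimb buds were measured from E9.5 to E13.5, on 3 arrays at the first stage, 4 at E11.5 and 5 at the others. Whole hindlimb buds took up 4 arrays at E10.5 and 5 per later stage, and intact embryos took up 2 arrays in each of 5 stages, which makes 14 groups and 51 arrays. No gene was altered and no agent was given. Each array held total RNA of 1 embryo after 2 cycles of labelling, on Affymetrix mouse arrays. The limb samples of a stage came from a single litter, so litter and stage cannot be told apart and the p-values measure the spread between these samples.

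BMPs are secreted dimers of the transforming growth factor beta superfamily. They bind a complex of type I receptors (Bmpr1a, Bmpr1b and Acvr1) and type II receptors (such as Bmpr2), and the type I receptor then phosphorylates the transcription factors Smad1, Smad5 and Smad9. In the limb bud they are known from the apical ectodermal ridge, the anterior and posterior mesenchyme, the interdigital tissue that dies as the digits separate, and the cartilage condensations. Secreted antagonists such as Noggin and Gremlin 1 bind the ligands and keep them from their receptors.

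Values are log2 intensities, each gene being the mean of its probe sets, and differences are differences of these means with the standard error (SE) of the fit in limma. A difference counted as a call, up-regulated or down-regulated by its sign, at 2-fold or more at a Benjamini-Hochberg adjusted p under 0.001, taken over all 18194 genes of a comparison. A difference that passed an adjusted p of 0.05 without that fold is given as such. Levels of different genes are not compared with each other, since each probe set has its own response. The median probe set lay at 5.31 and the lowest value at 2.29, and 8 of the 9 genes lay at or above the median gene.

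The arrays fell into 2 sets by their control probe sets. The 10 arrays of whole embryo and 3 of E9.5 forelimb had 10.6 to 13.04 for the bacterial Dap transcript, a spiked control, against 2.68 to 3.59 on the 38 later limb arrays. Their Gapdh signal at the 3' end exceeded that at the 5' end by 1.48 to 2.85, against -0.10 to 0.16 on the later limb arrays. Of the 9 comparisons of a limb with whole embryo, 8 therefore cross the sets, as do E10.5 over E9.5 forelimb and E9.5 forelimb over E10.5 hindlimb, and in these the set of arrays cannot be told apart from tissue and stage. The E9.5 forelimb comparison, all later comparisons between limbs and all later limb stages lie within 1 set. Inside that set the E9.5 groups still differed in these controls. Dap read 12.70 to 13.04 on the E9.5 forelimb arrays against 11.68 and 11.94 on the E9.5 whole-embryo pair. The Gapdh excess was 1.48 to 1.73 against 2.03 and 2.85, so the E9.5 comparison is not free of such differences. By title, 1 array was hindlimb at E11.5 (replicate 5) and 1 forelimb at E12.5 (replicate 5), while their other labels named another tissue or stage. The levels of Tbx5 (5.75 and 9.77), Tbx4 (10.05 and 6.77) and Pitx1 (10.65 and 5.52) on these 2 arrays lay with the groups of their titles, which were used.

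The promoters of a ligand that fell and of one that rose between E10.5 and E13.5 in both limbs are shown, as the 250 bases before the start of transcription in RefSeq on GRCm38.p6. Bmp4 lies on the minus strand at chr14:46390670-46390919 and Bmp5 on the plus strand at chr9:75775115-75775364, and capitals mark the GC box.
Bmp4: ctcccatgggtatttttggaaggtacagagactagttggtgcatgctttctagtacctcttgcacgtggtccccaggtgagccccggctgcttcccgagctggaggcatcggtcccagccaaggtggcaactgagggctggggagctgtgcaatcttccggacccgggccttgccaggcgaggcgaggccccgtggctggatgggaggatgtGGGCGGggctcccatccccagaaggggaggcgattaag
Bmp5: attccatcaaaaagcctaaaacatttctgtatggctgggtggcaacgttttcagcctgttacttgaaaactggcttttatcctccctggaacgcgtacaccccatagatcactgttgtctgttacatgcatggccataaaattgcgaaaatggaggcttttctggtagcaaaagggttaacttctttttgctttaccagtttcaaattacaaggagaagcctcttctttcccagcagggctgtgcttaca
The Bmp4 sequence held 63.2% G and C, and its GC box began 38 bases before the start. The Bmp5 sequence held 42.8% G and C and none of the motifs searched. Over 7 of the 10 genes, 9 such promoters were found, and Bmp2, Bmp3 and Bmp7 had no entry. On either strand, GGGCGG was in 5 of these 9 promoters (32.7% of 32851 promoters), CCAAT in 2 (33.8%), TATAAA in 1 (12.4%) and GGCGCC in 2 (9.59%). Matches of different motifs may overlap, and a match describes the letters only.

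**Figure D1:**
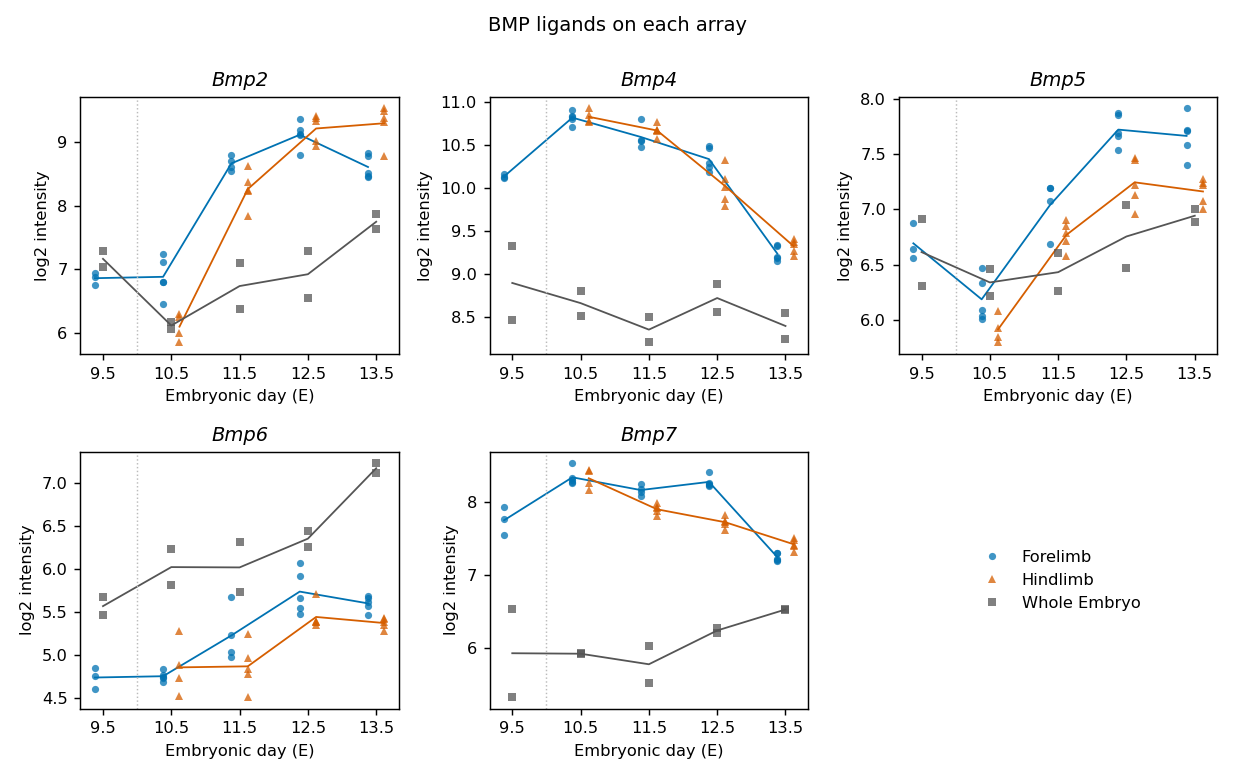
The level of each BMP ligand on every array, as log2 intensity against embryonic day, with forelimb as circles, hindlimb as triangles, whole embryo as squares and lines through the group means. The dotted line parts E9.5 from the later stages. Bmp4 and Bmp7 lie above whole embryo at every stage and fall late, Bmp2 and Bmp5 climb in both limbs after E10.5, and Bmp6 lies below whole embryo.

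Bmp4 and Bmp7 were the ligands most often called up-regulated over whole embryo, each in 7 of 9 comparisons, followed by Bmp2 in 5. Bmp6 was called down-regulated in 5 of 9. Among the receptors, Bmpr1b was called in 3 of 9, and Bmpr1a, Acvr1 and Bmpr2 in none. In all, 22 of the 81 pairs of gene and comparison were called up-regulated and 5 down-regulated. In forelimb, 2 of the 9 genes were called up-regulated at E9.5, where 2.08% of all genes were. At E10.5, 3 genes were called, of which Bmp4 and Bmp7 were up-regulated and Bmp6 down-regulated (background in either direction 13.9%). Up-regulated were 4 genes at E11.5 (background 11.7%), 4 in the E12.5 forelimb (8.52%) and 0 by E13.5 (5.54%), when Bmp6 was down-regulated (8.12%). In hindlimb, the up-regulated genes numbered 2 at E10.5 (9.77%), 3 by E11.5 (11.8%), 4 by E12.5 (7.11%) and 1 by E13.5 (6.10%). Bmp6 was the 1 gene down-regulated there, at E10.5 (3.41%), E11.5 (3.95%) and E13.5 (8.35%). Past an adjusted p of 0.05 at any fold, the higher genes in forelimb numbered 4, 7, 8, 8 and 8 from E9.5 on, where the background was 24.9%, 35.0%, 37.2%, 30.0% and 23.1%. In hindlimb they numbered 5, 7, 8 and 7 from E10.5 on, against 33.1%, 36.8%, 26.5% and 24.0%. The median difference of the 9 genes ran from 0.08 (forelimb at E9.5) to 0.97 (forelimb at E12.5), beside -0.08 to 0.09 over all genes. Over the genes at or above the median gene, where 8 of the 9 lay, the medians were higher, at 0.25 in E9.5 forelimb, 0.23 in E12.5 forelimb and 0.05 to 0.43 over the 9 comparisons. Forelimb and hindlimb of a stage were set against the same whole-embryo pair. In these homogenates fewer cells of a type and less RNA per cell cannot be told apart.

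Bmp4, a ligand of the ridge and the underlying mesenchyme, stood at its highest in both limbs at E10.5. The forelimb arrays read 10.82, 10.84, 10.80, 10.71 and 10.91 at E10.5, and the hindlimb arrays read 10.85, 10.76, 10.77 and 10.92. At E13.5 the forelimb arrays read 9.33, 9.19, 9.15, 9.18 and 9.33, and the hindlimb arrays read 9.27, 9.41, 9.21, 9.38 and 9.35. No array of E13.5 reached the lowest array of E10.5 in either limb. The whole-embryo pairs read 9.33 and 8.46 (E9.5), 8.52 and 8.81 (E10.5), 8.21 and 8.500 (E11.5), 8.55 and 8.89 (E12.5) and 8.55 and 8.24 (E13.5). Every limb array lay above the whole-embryo pair of its stage. Forelimb Bmp4 was up-regulated over whole embryo by 1.24 ± 0.15 at E9.5, where both groups belong to the same set of arrays, and by 2.15 ± 0.13 (E10.5), 2.24 ± 0.14 (E11.5) and 1.61 ± 0.13 (E12.5) (log2 ± SE, adjusted p 8.53e-09, 7.43e-18, 6.42e-18 and 5.44e-14). Hindlimb Bmp4 was up-regulated by 2.16 ± 0.14, 2.31 ± 0.13 and 1.30 ± 0.13 from E10.5 to E12.5. At E13.5 the differences were 0.84 in forelimb and 0.93 in hindlimb, under 2-fold but past an adjusted p of 0.05. The members of the E9.5 whole-embryo pair lay well apart. Without its replicate 2 the E9.5 difference was 0.81, and with only those 2 groups fitted its adjusted p was 0.0693, and the call was lost in both, as it was at an adjusted p of 0.00793 with the 13 arrays of that set fitted on their own. Without replicate 1 of whole embryo at E13.5 the hindlimb difference was 1.08 and called.

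Bmp7, a ligand of the ridge and distal mesenchyme, followed a course near to that of Bmp4. Its forelimb arrays read 7.55, 7.76 and 7.93 (E9.5), 8.33, 8.26, 8.53, 8.29 and 8.27 (E10.5) and 8.24, 8.41, 8.22, 8.24 and 8.26 (E12.5). They read 7.30, 7.19, 7.21, 7.21 and 7.29 at E13.5, so that the E13.5 arrays lay apart below the other forelimb stages. The hindlimb arrays read 8.16, 8.43, 8.44 and 8.26 (E10.5), 7.98, 7.92, 7.91, 7.87 and 7.80 (E11.5), 7.74, 7.82, 7.70, 7.72 and 7.62 (E12.5) and 7.39, 7.47, 7.41, 7.51 and 7.31 (E13.5). Over all stages whole embryo read 5.32 to 6.53, below the lowest limb array at 7.19. The forelimb was above whole embryo by 1.82 ± 0.16 (E9.5), 2.42 ± 0.14 (E10.5), 2.39 ± 0.15 (E11.5) and 2.04 ± 0.14 (E12.5), all called (adjusted p from 1.6e-18 to 1.75e-12). The hindlimb was above it by 2.41 ± 0.15, 2.13 ± 0.14 and 1.49 ± 0.14 from E10.5 to E12.5, also called. By E13.5 the difference was 0.72 in forelimb and 0.90 in hindlimb and no longer 2-fold. At E9.5 the 3 probe sets gave 2.33, 1.87 and 1.27, each called (background over all probe sets 2.35%), but with only the 2 groups fitted the adjusted p of the gene was 0.0601, and with the 13 arrays of that set 0.00286, and its call was lost. In the 8 later comparisons the probe sets did not keep together: 1432410_a_at was called in 8, 1418910_at in 6 and 1435479_at, the one of highest mean, in 2, with differences from -0.08 to 1.39. In these comparisons the background over all probe sets called up-regulated was 12.1%, 19.7% (either direction), 10.7%, 9.40%, 11.4%, 13.3%, 9.36% and 9.90%, for forelimb and then hindlimb in order of stage.

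Bmp2, known from the ridge, the posterior mesenchyme and later the interdigital tissue, had the widest span of group means of the 9 genes (3.19). The hindlimb arrays read 5.86, 6.31, 6.005 and 6.25 (E10.5), 7.83, 8.23, 8.37, 8.24 and 8.62 (E11.5), 8.93, 9.01, 9.32, 9.38 and 9.41 (E12.5) and 9.30, 9.48, 9.52, 8.77 and 9.38 (E13.5). The forelimb arrays read 6.89, 6.94 and 6.76 (E9.5), 6.80, 7.11, 6.80, 6.46 and 7.25 (E10.5) and 8.80, 8.61, 8.54 and 8.70 (E11.5). In each limb the E11.5 arrays lay above all E10.5 arrays with a wide gap. The later forelimb arrays read 8.79, 9.10, 9.12, 9.36 and 9.18 at E12.5 and 8.82, 8.46, 8.78, 8.51 and 8.45 at E13.5, and these ranges met. The whole-embryo pairs read 7.29 and 7.04 (E9.5), 6.18 and 6.06 (E10.5), 7.10 and 6.39 (E11.5), 6.56 and 7.30 (E12.5) and 7.87 and 7.63 (E13.5). Bmp2 was not above whole embryo at E9.5 (-0.30 ± 0.22, adjusted p 0.326, 95% interval -0.75 to 0.14). It was up-regulated in forelimb by 1.92 ± 0.21 at E11.5 and 2.18 ± 0.20 at E12.5. In hindlimb it was up-regulated by 1.52 ± 0.20 (E11.5), 2.28 ± 0.20 (E12.5) and 1.54 ± 0.20 (E13.5) (adjusted p 1.3e-08, 3.45e-13 and 9.26e-09). Forelimb at E13.5 was 0.86 above whole embryo, under 2-fold.

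Bmp5, a ligand with known roles in the skeleton, rose in both limbs after E10.5. The forelimb arrays read 6.09, 6.46, 6.03, 6.33 and 6.01 (E10.5), 7.87, 7.66, 7.69, 7.54 and 7.85 (E12.5) and 7.71, 7.40, 7.58, 7.71 and 7.91 (E13.5). The hindlimb arrays read 5.80, 6.08, 5.84 and 5.93 (E10.5), 6.96, 7.45, 7.47, 7.13 and 7.22 (E12.5) and 7.27, 7.24, 7.07, 7.001 and 7.22 (E13.5). Forelimb lay wholly above hindlimb at E12.5 and E13.5, and in each limb the E12.5 and E13.5 arrays lay above all E10.5 arrays. Against whole embryo the averaged level was called in no comparison, though in E10.5 hindlimb it passed an adjusted p of 0.05 at -0.43. It was 0.97 higher in forelimb at E12.5, and 1.25 higher and called without replicate 2 of whole embryo, or 1.01 and called without forelimb replicate 4. The 3 probe sets pointed in opposite directions in the comparisons that cross the sets of arrays. In the 8 comparisons from E10.5, 1421282_at was called up-regulated in 7, with differences of 0.90 to 2.41, and 1421283_at in 4, with differences of 0.15 to 1.54. Against these, 1455851_at was called down-regulated in 8, with differences of -2.32 to -1.04. Up-regulated over all probe sets were 9.36% to 13.3% in these comparisons. Down-regulated over all probe sets were 5.46%, 6.66%, 6.03% and 7.56% in forelimb and 5.59%, 7.16%, 5.65% and 7.46% in hindlimb from E10.5 on. Between forelimb and whole-embryo arrays of E9.5, which belong to 1 set, the 3 probe sets differed by 0.10, 0.13 and 0.01. From E10.5 to E13.5 in forelimb, within the later limb arrays, all 3 rose, by 1.14, 1.55 and 1.75. Over the last of these steps, from E12.5 to E13.5, 1421282_at went from 7.36 to 6.76 in forelimb and from 6.58 to 6.17 in hindlimb. Over the same step 1455851_at went from 8.32 to 8.48 and from 7.90 to 8.13, and neither difference passed an adjusted p of 0.05 in limma, as both of 1421282_at did.

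Bmp6, a ligand known from hypertrophic cartilage and from neural tissue, was the 1 ligand called down-regulated against whole embryo at its averaged level. The whole-embryo pairs read 5.68 and 5.47 (E9.5), 5.82 and 6.23 (E10.5), 5.73 and 6.31 (E11.5), 6.27 and 6.45 (E12.5) and 7.24 and 7.12 (E13.5). The limb arrays of the same stages were all lower, from 4.51 (hindlimb, E11.5) to 6.08 (forelimb, E12.5). The calls were differences of -1.27 ± 0.17 at E10.5 and -1.57 ± 0.17 at E13.5 in forelimb and, in hindlimb, -1.17 ± 0.18, -1.15 ± 0.17 and -1.80 ± 0.17 at E10.5, E11.5 and E13.5. The other 4 differences were -0.62 to -0.91 and passed an adjusted p of 0.05. The hindlimb calls at E10.5 and E11.5 were lost without replicate 2 of whole embryo of the stage (-0.96 and -0.86), and with only the groups compared fitted (adjusted p 0.00164 and 0.00108). Without replicate 1 of whole embryo, forelimb at E11.5 (-1.08) and hindlimb at E12.5 (-1.004) were called. Bmp6 was measured by 1 probe set, and it was the 1 gene of the 9 below the median gene.

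**Figure D2:**
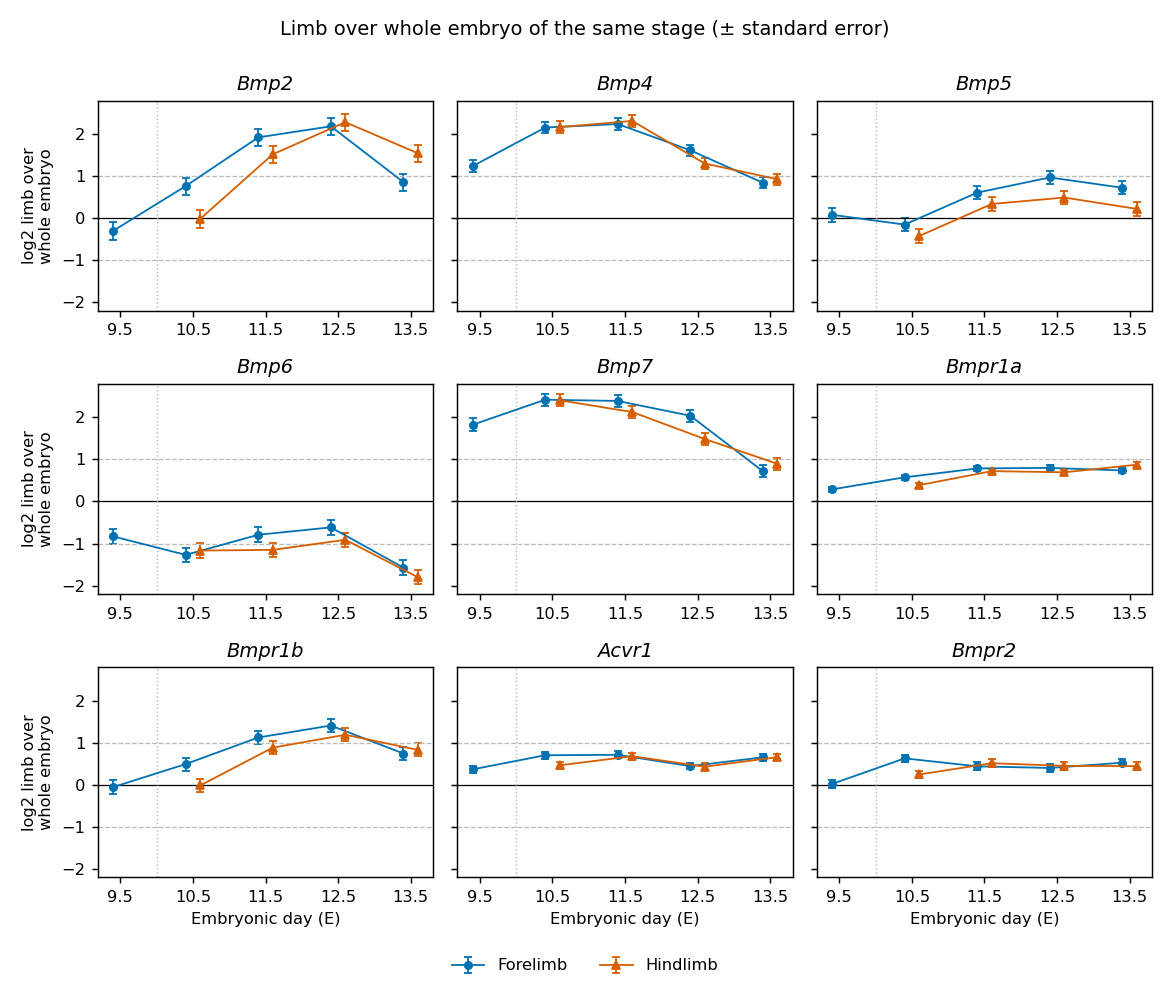
The difference of forelimb (circles) and hindlimb (triangles) from whole embryo of the same stage for each gene, in log2, with bars of 1 standard error. Dashed lines mark 2-fold and the dotted line parts the E9.5 comparison from those that cross the 2 sets of arrays. Bmp4 and Bmp7 exceed 2-fold until E12.5 in both limbs, and Bmpr1a, Acvr1 and Bmpr2 stay between 0 and 1.

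Of the type I receptors, Bmpr1b, which marks prechondrogenic condensations, varied most. Its forelimb arrays read 5.25, 5.16 and 5.40 (E9.5), 6.13, 6.30, 6.01, 6.21 and 6.45 (E10.5) and 7.05, 7.24, 7.33, 7.26 and 7.17 (E12.5). At E13.5 they read 6.25, 6.17, 6.37, 6.21 and 6.27, back within the E10.5 range. The hindlimb arrays read 5.61, 5.74, 5.61 and 5.89 (E10.5), 6.91, 6.91, 7.08, 7.04 and 7.02 (E12.5) and 6.48, 6.55, 6.40, 5.83 and 6.45 (E13.5). Both limbs were thus highest at E12.5, with no overlap with E10.5 or E13.5. Whole embryo read 4.92 to 5.88 over all stages. Bmpr1b was called over whole embryo in forelimb at E11.5 (1.13 ± 0.16) and E12.5 (1.41 ± 0.15) and in hindlimb at E12.5 (1.19 ± 0.15). These 3 calls rest on 1422872_at and 1443720_s_at; with 1437312_at, the probe set of highest mean, the differences were 0.08, 0.04 and -0.08. In E10.5 hindlimb, 1437312_at was called down-regulated against whole embryo (-1.06), where the averaged level differed by -0.02. Within the later limb arrays the probe sets also parted. From E10.5 to E13.5 in hindlimb, 1437312_at rose by 1.49 and was called, 1443720_s_at by 0.57, and 1422872_at differed by -0.17.

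Bmpr1a, the type I receptor used widely in the limb bud, moved least, between 7.92 and 8.47 on all 41 limb arrays, and whole embryo read 7.28 to 7.71. The limb arrays therefore all lay above all whole-embryo arrays, by 0.29 to 0.87 on average, and all 9 differences passed an adjusted p of 0.05 without reaching 2-fold. Acvr1, the third type I receptor, rose with age in all tissues: forelimb means ran from 6.58 ± 0.07 (SD) at E9.5 through 6.99 ± 0.07 at E10.5 to 7.52 ± 0.06 at E13.5, hindlimb means from 6.75 ± 0.08 to 7.53 ± 0.07, and whole-embryo means from 6.21 ± 0.11 to 6.87 ± 0.03. The forelimb step from E9.5 to E10.5 crosses the sets of arrays, and the Acvr1 probe sets parted there, as given below. The differences of Acvr1 from whole embryo were 0.37 to 0.71 and all passed an adjusted p of 0.05. The type II receptor Bmpr2 stood at 6.97 ± 0.05 in E9.5 forelimb, 7.30 ± 0.09 in E10.5 hindlimb and between 7.68 and 7.89 in the other 7 limb groups on average. It was above whole embryo by 0.25 to 0.63 from E10.5, and at E9.5 the difference was 0.02 ± 0.10 (adjusted p 0.908, 95% interval -0.18 to 0.22).

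The receptor averages hid probe sets that parted in the comparisons that cross the sets of arrays. In the 8 later comparisons with whole embryo, 1 probe set each of Bmpr1a (1425491_at, 1.62 to 1.85), Acvr1 (1416786_at, 1.25 to 2.04) and Bmpr2 (1419616_at, 1.68 to 2.22) was called in all 8. Over all probe sets, 9.36% to 13.3% were called up-regulated in these comparisons. The brightest probe set of each gene was called in 0 of 8, with differences of -0.27 to 0.75 for Bmpr1a (1425492_at), -0.02 to 0.34 for Acvr1 (1448460_at) and -0.72 to -0.17 for Bmpr2 (1434310_at). At E9.5, inside 1 set, 1419616_at differed from whole embryo by 0.18 and 1416786_at by 0.73, neither called. Between E9.5 and E10.5 forelimb, 1419616_at went from 5.25 to 7.26 and 1416786_at from 6.34 to 7.88, whereas 1434310_at went from 10.69 to 10.94 and 1448460_at from 8.53 to 8.44. For these 8 comparisons the set of arrays and the tissue cannot be told apart.

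**Figure D3:**
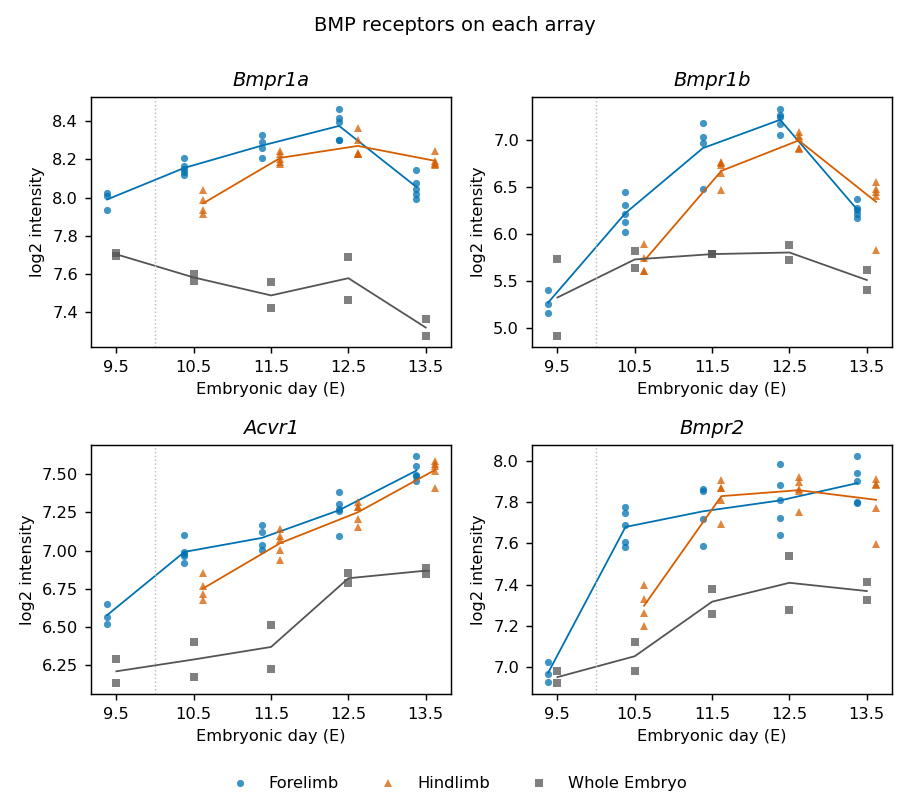
The level of each BMP receptor on every array, as log2 intensity against embryonic day, with forelimb as circles, hindlimb as triangles, whole embryo as squares and lines through the group means. Bmpr1b peaks at E12.5 in both limbs, Acvr1 climbs with age, and the E10.5 hindlimb arrays lie below the E10.5 forelimb arrays for all 4 receptors.

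**Figure D4:**
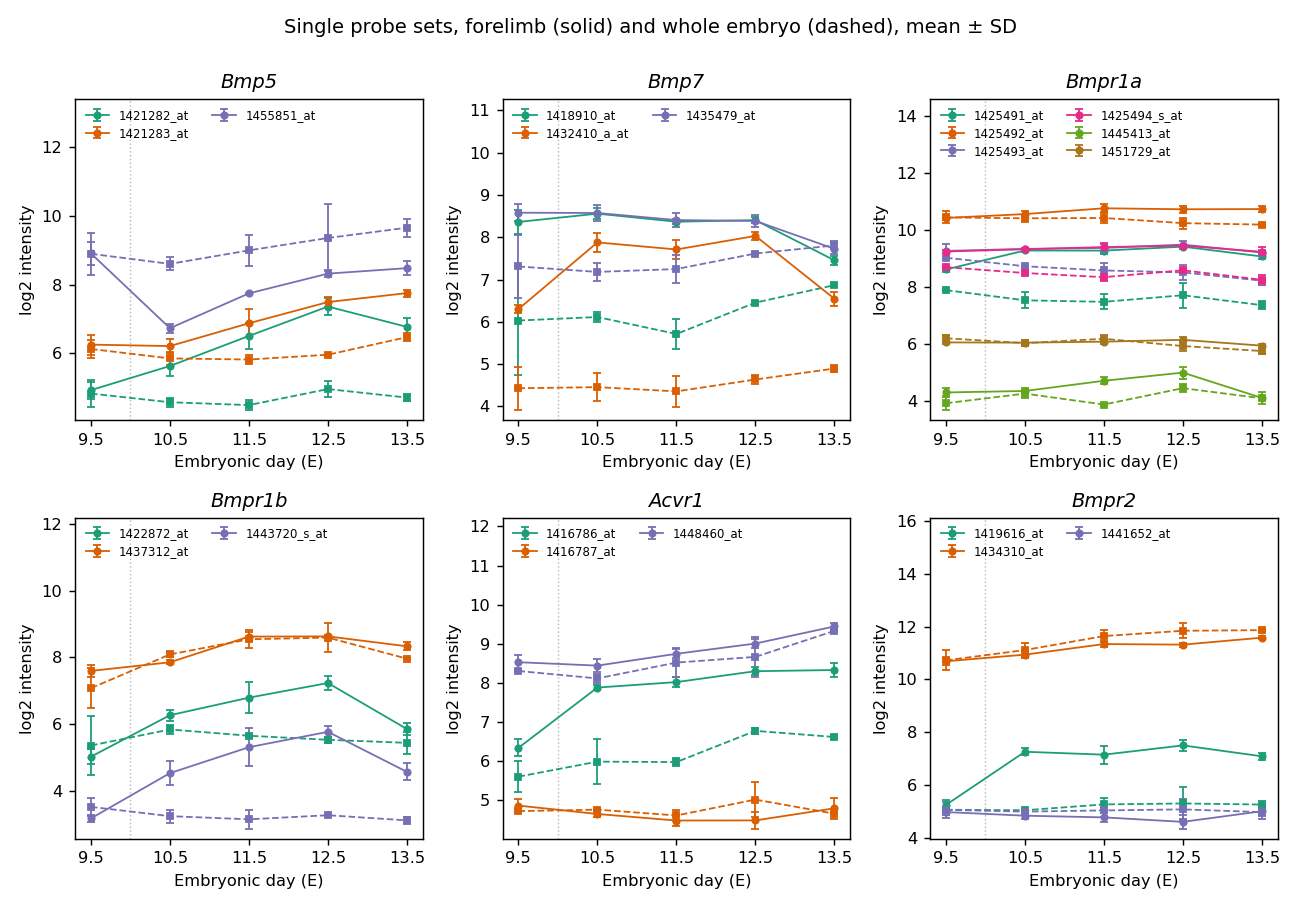
Group means of single probe sets with bars of 1 SD, as log2 intensity against embryonic day, for the genes with 3 or more probe sets, with forelimb as solid lines and whole embryo as dashed lines. Probe sets of 1 gene part between E9.5 and E10.5 forelimb, as 1455851_at of Bmp5 (8.91 to 6.73) and 1419616_at of Bmpr2 (5.25 to 7.26). At this step both the stage and the set of arrays change.

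When the 14 groups were ordered by mean level, the array ranges of most neighbouring groups overlapped. Such an order puts the closest means side by side, so overlap of neighbours is favoured in advance. The overlap is a description and not a test, and its share over all genes was not taken. Each order also mixes groups from the different sets of arrays. Of 13 pairs of neighbours, the arrays overlapped in 13 for Bmp5, 12 for Bmpr1b, 11 for Bmp2, Bmp4, Bmp6 and Bmpr2, 10 for Bmpr1a, 9 for Acvr1 and 8 for Bmp7. Bmp4 was highest in E10.5 hindlimb (10.83) and E10.5 forelimb (10.82), and its 5 lowest groups were the whole embryos. Bmp7 had the same 5 lowest groups, with E13.5 whole embryo (6.52) apart from E13.5 forelimb (7.24), the lowest limb group. Bmp2 was highest in E13.5 hindlimb (9.29) and lowest in E10.5 hindlimb (6.10), which overlapped E10.5 whole embryo (6.12). Bmp6 had the 4 whole-embryo groups from E10.5 at the top, led by E13.5 (7.18), which stood apart from E12.5 (6.36). Bmpr1b and Bmpr1a were both highest in E12.5 forelimb (7.21 and 8.38), and Acvr1 and Bmp2 in E13.5 hindlimb.

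Forelimb was compared with hindlimb of its own stage, since the hindlimb bud appears later, and with hindlimb of the next stage. In no same-stage comparison was a gene called, where the background in order of stage was 0.566%, 0.412%, 0.506% and 0.286% of genes. Past an adjusted p of 0.05, 5 of 9 genes were higher in forelimb at E10.5 (background 7.94%). Bmp2 arrays of E10.5 forelimb all lay above those of hindlimb, and the difference was 0.78 ± 0.16 (adjusted p 0.00055). All 4 receptors were higher too, by 0.51 ± 0.12 for Bmpr1b, 0.38 ± 0.07 for Bmpr2, 0.24 ± 0.06 for Acvr1 and 0.19 ± 0.05 for Bmpr1a, with no overlap between the arrays of the limbs (background 8.96%). For Bmp4 and Bmp7 the E10.5 differences were -0.01 (95% interval -0.23 to 0.21) and 0.01 (-0.22 to 0.25). At E11.5 no gene passed an adjusted p of 0.05 in limma (background 3.17% higher and 1.20% lower), and 4 of 9 had an unadjusted p under 0.05.

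At E12.5, 3 of 9 genes were higher in forelimb past an adjusted p of 0.05 (background 6.02%). These were Bmp7 by 0.55 ± 0.11, with its 3 probe sets between 0.47 and 0.60, Bmp5 by 0.48 ± 0.12 and Bmp4 by 0.32 ± 0.10. At E13.5, Bmp5 was higher in forelimb by 0.50 ± 0.12 (background 3.19%) and Bmp2 was lower, with a difference of -0.69 ± 0.15 (background 3.27%). Hindlimb replicate 4 at E13.5 read 8.77 for Bmp2, inside the forelimb range of 8.45 to 8.82, and the other 4 hindlimb arrays lay above it. Against hindlimb of the next stage, 2 pairs of gene and comparison were called. In E9.5 forelimb over E10.5 hindlimb, which crosses the sets of arrays, no gene was called (6.10% of all genes), and past an adjusted p of 0.05 in limma 2 were higher (26.8%) and 5 lower (22.4%). Bmp2 was lower in E10.5 forelimb than in E11.5 hindlimb, with a difference of -1.37 ± 0.15 (background 0.747%). Bmp4 was higher in E12.5 forelimb than in E13.5 hindlimb by 1.01 ± 0.10 (background 0.676%), which is 2.02-fold. That last call fell to 0.97 to 0.998 and was lost without forelimb replicate 1 or 3 or without hindlimb replicate 1 or 3.

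**Figure D5:**
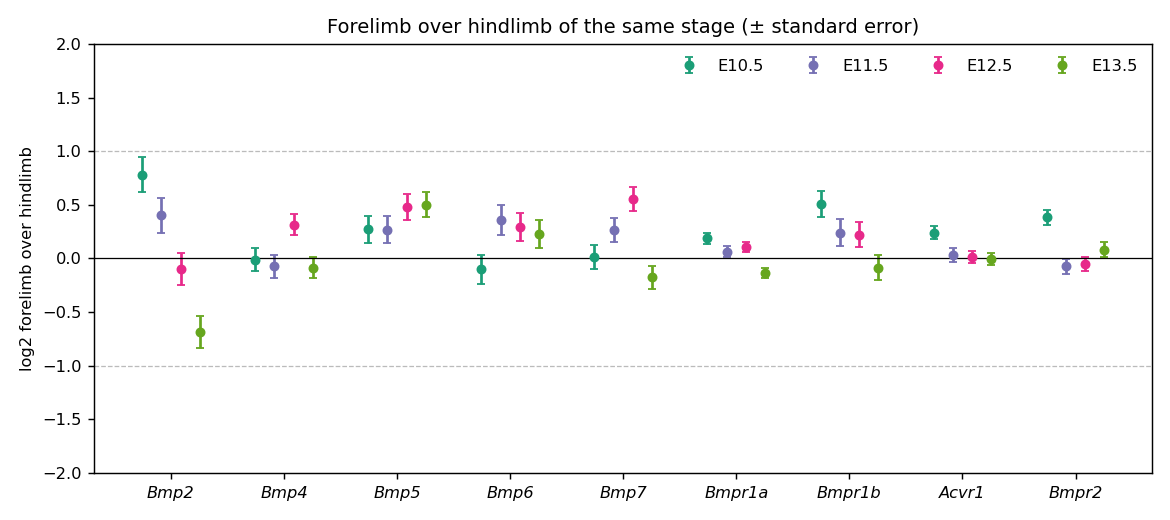
The difference of forelimb from hindlimb of the same stage for each gene, in log2, with bars of 1 standard error and 1 colour per stage. Dashed lines mark 2-fold. Bmp2 goes from 0.78 at E10.5 to -0.69 at E13.5, Bmp5 stays above 0 at all 4 stages, and no value reaches 2-fold.

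Between stages, most of the change in Bmp2 came in 1 step. From E10.5 to E11.5 it was up-regulated by 1.78 ± 0.16 in forelimb (adjusted p 6.57e-12; background 1.71%) and by 2.15 ± 0.16 in hindlimb (adjusted p 2.16e-14; background 1.95%), and it was the 1 gene of the 9 called in each. In the next hindlimb step Bmp2 was 0.95 ± 0.15 higher, and 1.02 to 1.04 higher and called without hindlimb replicate 5 of E11.5 or replicate 1 of E12.5. The 2 genes called in the step to E13.5 forelimb were down-regulated, Bmp4 with a difference of -1.10 ± 0.10 and Bmp7 with one of -1.03 ± 0.11 (background 1.29%). The Bmp7 call was lost with its probe set of highest mean (-0.66), without forelimb replicate 2 of E12.5 (-0.998) and with the 2 arrays of conflicting labels grouped by their other labels (-0.94). In hindlimb Bmp4 differed by -0.65 ± 0.10 and -0.70 ± 0.10 in the steps to E12.5 and to E13.5, neither 2-fold. Bmpr1b was 0.96 ± 0.12 higher at E11.5 than at E10.5 in hindlimb and -0.96 ± 0.12 apart in the last forelimb step. The first of these was called, at 1.01 to 1.02, without hindlimb replicate 4 of E10.5 or replicate 1 of E11.5. In whole embryo Bmp2 was lower at E10.5 than at E9.5, by a difference of -1.04 ± 0.24 that passed an adjusted p of 0.05 (0.00351) and was called under quantile normalization (-1.22, adjusted p 0.000817). No gene was called in a single step of whole embryo, where the background was 0.555%, 0.643%, 2.21% and 3.12% in order of stage. None was called from E9.5 to E10.5 (7.54%) or from E11.5 to E12.5 (0.764%) in forelimb, nor from E11.5 to E12.5 (0.824%) or from E12.5 to E13.5 (1.95%) in hindlimb.

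Over the whole span from E10.5 to E13.5, 4 of 9 genes were called in forelimb, 2 in each direction (background 5.43% up and 5.13% down). Up-regulated were Bmp2 by 1.72 ± 0.15 and Bmp5 by 1.48 ± 0.12, and down-regulated were Bmp4, with a difference of -1.58 ± 0.10, and Bmp7, with one of -1.09 ± 0.11. In hindlimb 3 were called (background 5.99% up and 5.16% down), with differences of 3.19 ± 0.16 for Bmp2, which is 9.1-fold, 1.25 ± 0.13 for Bmp5 and -1.504 ± 0.11 for Bmp4. With the probe set of highest mean, the forelimb difference of Bmp7 was -0.85 and its call was lost. Hindlimb Bmp7 differed by -0.91 ± 0.12, under 2-fold. In whole embryo, Bmp2 was up-regulated by 1.63 ± 0.24 and Bmp6 by 1.15 ± 0.20 (background 9.88%), and the Bmp6 call was lost without replicate 1 of E10.5 (0.94), with only those 2 groups fitted (adjusted p 0.00117) and with the 13 arrays of that set on their own (0.00165). The median difference of the 9 genes was 0.21 in forelimb, 0.52 in hindlimb and 0.58 in whole embryo, beside -0.03, -0.08 and 0.05 over all genes.

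The changes themselves were compared between tissues, in which a constant offset between the 2 sets of arrays cancels. An offset that differs between stages does not cancel. The whole-embryo pairs differed in the 99th percentile, at 12.10 and 12.42 (E10.5) against 12.67 and 12.66 (E13.5). Their Gapdh excess was 2.63 and 2.56 against 2.02 and 1.92. Bmp2 rose less in forelimb than in hindlimb from E10.5 to E13.5, with a difference of -1.47 ± 0.22 (adjusted p 6.04e-06; background 0.627%), and it rose more in hindlimb than in whole embryo, by 1.56 ± 0.29 (background 2.50%). Of its single steps, -0.38, -0.50 and -0.59, none passed an adjusted p of 0.05. Bmp4 and Bmp7 changed by -1.31 ± 0.19 and -1.70 ± 0.20 in forelimb relative to whole embryo (background 9.87%), and by -1.24 ± 0.19 and -1.51 ± 0.21 in hindlimb (background 9.49%). With the probe set of highest mean the hindlimb value of Bmp7 was -0.89 and its call was lost. Under quantile normalization the Bmp4 values were -0.92 in forelimb and -0.86 in hindlimb, and both calls were lost. Both comparisons share the whole-embryo arrays. The median over all genes was -0.14 in the first and -0.16 in the second, and over the genes at or above the median gene it was -0.37 and -0.31, so that the shifts relative to it are smaller by that much. For the receptors the forelimb less hindlimb changes were -0.32 for Bmpr1a, -0.30 for Bmpr2, -0.59 for Bmpr1b and -0.24 for Acvr1, of which the first 3 passed an adjusted p of 0.05 and none was 2-fold. With the probe set of highest mean, Bmpr1b was -1.01 there and called, and in hindlimb relative to whole embryo Bmpr1a (1.02, averaged 0.49) and Bmpr1b (1.61, averaged 0.85) were called. In the step from E12.5 to E13.5, Bmp7 fell more in forelimb than in hindlimb (-0.73 ± 0.15, adjusted p 0.00567).

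Over the means of the 8 later limb groups, the pairs of genes with the largest correlations in either direction are given. They are a description over points that share litters and arrays, and the spread over all genes was not taken. Pearson's r was 0.92 for Bmp4 with Bmp7, 0.93 for Bmp5 with Bmp6, 0.89 for Bmp2 with Bmp5, 0.95 for Bmpr1a with Bmpr1b and -0.94 for Bmp4 with Acvr1. Over the 38 later limb arrays, the genes most like Bmp2 were Gdf5 (r 0.98), a ligand of the same family that marks joints, Bnc2 (0.981) and Sox6 (0.975), a transcription factor of cartilage. Most like Bmp4 were Ift22, Nubpl and B9d1 (each 0.98), and most like Bmp7 were Taf1c, Zfp566 and Retsat (each 0.93). Bmp5 was closest to Thbs1, Sntb1 and Ccdc80 (each 0.95), and Bmp6 to Sult5a1 (0.90), Cacng4 (0.87) and Unc5d (0.86). Among the receptors, Acvr1 was closest to the collagen genes Col3a1 (0.97) and Col11a1 (0.96) and to Gpr153 (0.96). Bmpr1b was closest to S1pr3 (0.95), 4931406C07Rik (0.94) and Mxd4 (0.93), Bmpr1a to Patj (0.93), Add1 (0.92) and Ccdc112 (0.92), and Bmpr2 to Srpk2, Zfp148 and Tcf7l2 (each 0.90).

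The rest of the pathway was described from 5 lists of 50 genes, of which 47 were measured. Against whole embryo at E9.5, within 1 set of arrays, 3 of the 47 were called up-regulated in forelimb and 3 down-regulated (background 2.08% and 1.61%). Their median was 0.08 (all genes 0.08). In E11.5 forelimb against whole embryo, which crosses the sets, 15 of the 47 were called up-regulated and 1 down-regulated (background 11.7% and 3.64%). Their median was 0.70 (all genes 0.09). The same shares of all genes stand beside the counts by list that follow. Of 16 antagonists and modulators, 7 were up-regulated, led by Sostdc1 (2.65 ± 0.20), Twsg1 (2.30 ± 0.12), Grem1 (1.88 ± 0.37) and Nog, which encodes Noggin (1.84 ± 0.25). Of 8 target genes, 4 were up-regulated and 1 (Id4) down-regulated, led by Id1 (3.31 ± 0.15), Dlx5 (2.09 ± 0.21), Msx1 (1.76 ± 0.16) and Id3 (1.40 ± 0.12). Of 8 intracellular mediators, 2 were up-regulated, the inhibitory Smad6 (1.86 ± 0.21) and the signal transducer Smad5 (1.59 ± 0.17). Of 7 other ligands Gdf5 alone was called (3.69 ± 0.25), and of 8 other receptors and coreceptors the BMP coreceptor Hjv alone (1.36 ± 0.19).

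From E10.5 to E13.5 the antagonists and modulators moved in both directions. In forelimb, 6 of 16 were up-regulated and 2 down-regulated (median 0.64), and in hindlimb 7 and 2 (median 0.71). The background was 5.43% up and 5.13% down in forelimb and 5.99% and 5.16% in hindlimb. Fst, which encodes follistatin, rose by 3.64 ± 0.20 in forelimb and 3.03 ± 0.22 in hindlimb, and Bmper by 3.55 ± 0.18 and 4.56 ± 0.20. Nog rose by 2.22 ± 0.18 in forelimb and Sostdc1 by 2.81 ± 0.15 in hindlimb, while Sost fell by 2.54 in forelimb and Grem1 fell by 2.64 in hindlimb. Gdf5 rose in both limbs, by 2.92 ± 0.18 and 5.02 ± 0.19. Among other receptors and coreceptors, Hjv (3.69 ± 0.14 and 2.87 ± 0.15) and Tgfbr3 (1.21 ± 0.10 and 1.45 ± 0.10) rose in forelimb and hindlimb, Rgmb rose in hindlimb (1.36 ± 0.11), and the type II receptor Acvr2b fell in both (-1.52 ± 0.15 and -1.29 ± 0.16). The target genes Msx1 (-1.29 ± 0.12), Hey1 (-1.15 ± 0.11) and Msx2 (-1.13 ± 0.08) fell in forelimb, and Id4 rose in both limbs (1.79 ± 0.13 and 1.87 ± 0.14), as did Dlx5 in hindlimb (1.06 ± 0.16). No intracellular mediator was called, and those of largest difference were Smad6 in forelimb (-0.58 ± 0.15) and Smad1 in hindlimb (0.63 ± 0.11).

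Between the limbs at E10.5, 2 of the 47 were called (background 0.566%), both higher in forelimb: Gdf5 (1.27 ± 0.19) and Bmper (1.200 ± 0.20). The largest differences in the lists with no call were Id4 (0.66 ± 0.14), Rgmb (0.52 ± 0.11) and Smad7 (0.28 ± 0.10). At E13.5 none of the 47 was called (background 0.286%). The largest differences there were Gdf5 (-0.84 ± 0.18), Hjv (0.82 ± 0.14), Msx1 (-0.78 ± 0.12), Tll1 (-0.63 ± 0.14) and Smad6 (-0.30 ± 0.15), of which all but Smad6 passed an adjusted p of 0.05. Gdf5, like Bmp2, was higher in forelimb at E10.5 and lower at E13.5. In the change from E10.5 to E13.5, forelimb less hindlimb, Gdf5 (-2.10 ± 0.26) and Sostdc1 (-1.199 ± 0.21) were called (background 0.627%). Msx2 (-0.74 ± 0.12), Hjv (0.82 ± 0.20) and Smad7 (-0.54 ± 0.14) were the largest in the other lists.

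Marker genes of the tissues in a limb or an embryo moved beside these results, and their part in them was not tested. All 5 limb mesenchyme genes were called up-regulated in forelimb over whole embryo at E11.5 (median 2.38, background 11.7%). The 5 neuron, 4 liver and 3 of 4 heart genes were called down-regulated there (medians -5.09, -4.71 and -3.63, background 3.64%). Within the limbs from E10.5 to E13.5, the background was 5.43% up and 5.13% down in forelimb and 5.99% and 5.16% in hindlimb. Of 7 cartilage genes, 6 were called up-regulated in forelimb and 7 in hindlimb (medians 3.08 and 3.82). The muscle genes were called in 5 and 6 of 6 (medians 5.33 and 5.35), and the erythroid genes were called down-regulated in 4 of 4 in both limbs (medians -3.05 and -3.0045). Of 5 ridge genes, 2 were called down-regulated in each limb and 1 up-regulated in hindlimb. Of 5 limb mesenchyme genes, 3 were called down-regulated in forelimb and 0 in hindlimb. The summed ridge signal, as log2, went from 9.74 to 9.88 on the E10.5 forelimb arrays to 8.21 to 8.36 at E13.5, and from 9.94 to 10.15 to 8.16 to 8.53 in hindlimb. The summed signal of the 3 joint genes ran beside Bmp2: in forelimb it was 6.84 to 7.57 at E10.5, 9.32 to 9.89 at E12.5 and 8.81 to 9.15 at E13.5, and in hindlimb 6.04 to 6.45, 9.16 to 9.93 and 9.64 to 9.85. Gdf5, described above, is 1 of these joint genes. The target genes Dlx5 and Msx1, also described above, are among the ridge and the limb mesenchyme genes. At E10.5, 2 of 7 cartilage and 2 of 3 joint genes were called higher in forelimb than in hindlimb (background 0.418%), beside the higher Bmp2 and receptor levels there.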

How the data were processed

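The 51 arrays were scanned by the authors, and the deposited values are linear probe set intensities made with RMA at default settings, of a version not given in the sources used here. The authors had corrected a blemish on 1 array of E12.5 whole embryo, with the replicate median as reference. RMA brings the arrays toward a like distribution, so that a shift of most genes at once cannot be seen. The deposited values still differed at the top. Their 99th percentile was 11.92 to 12.42 on the E10.5 and E11.5 whole-embryo arrays and 12.24 on replicate 2 of E9.5. It was 12.61 to 12.70 on the later limb arrays and 12.53 to 12.70 on the other whole-embryo arrays. Its part in the differences over whole embryo was not tested beyond quantile normalization. Groups follow the sample titles. Here log2 of the intensity was taken, and each gene is the mean of its probe sets (34958 of 45101 probe sets with 1 symbol in GEO's platform annotation, 932 with several and 9211 without entry, left out), giving 18194 genes. The 14 groups were fitted together with lmFit and eBayes in limma 3.58.1 under R 4.3.3 (37 residual degrees of freedom), and 37 contrasts were tested, each adjusted by Benjamini-Hochberg over all genes. The number of arrays limits the precision. The fit was tested on simulated data.

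The genes and the lists were chosen with earlier results of these data known. All 10 genes are named in the text, but not all of their probe sets. From each list, a comparison shows at most 4 of the called genes, those that changed most. A list without a call is shown by the 1 gene that changed most. For every measured gene, the 3 genes that correlated best with it over the 38 later limb arrays are given. Alternatives were the probe set of highest mean, quantile normalization, only the groups compared, array quality weights, a filter on low genes, a replicate block, other labels for 2 arrays or leaving both out, adjustment over the probe sets with 1 symbol, leaving out each array, and, chosen after seeing the data, each set of arrays fitted on its own.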

Additional observations from a re-analysis of the deposited data

Results flagged for a closer look

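In 5 of 72 sets of values, each of 1 gene in 1 group of 4 or 5 arrays, 1 array lay far from the others by Dixon's criterion. Chance gives this in about 1 of 20 for a single set, and these sets share arrays and are not independent. Hindlimb replicate 5 at E12.5 read 5.71 for Bmp6, with the next at 5.39. Forelimb replicate 3 at E10.5 read 8.53 for Bmp7 (next 8.33), and forelimb replicate 2 at E12.5 read 8.41 (next 8.26). Hindlimb replicate 2 at E13.5 read 8.25 for Bmpr1a (next 8.19), and hindlimb replicate 4 at E13.5 read 5.83 for Bmpr1b (next 6.40).

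Differences of change between tissues were tested in limma in 54 pairs of gene and comparison. At 2-fold or more and an adjusted p under 0.001, 6 were called, all from E10.5 to E13.5. At any fold, 17 passed an adjusted p of 0.05. For Bmp2 the log2 change in forelimb less that in hindlimb was -1.47 (background 0.627%), and that in hindlimb less whole embryo was 1.56 (background 2.50%). For Bmp4 the change less that in whole embryo was -1.31 in forelimb (background 9.87%) and -1.24 in hindlimb (background 9.49%). Both of these calls were lost under quantile normalization (-0.92 and -0.86). For Bmp7 the change less that in whole embryo was -1.70 in forelimb and -1.51 in hindlimb, beside the same shares. With the probe set of highest mean the hindlimb value was -0.89 and its call was lost.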

How the results depend on the processing

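Calls over whole embryo numbered 27 (22 up-regulated, 5 down-regulated), between the limbs 2, between stages 13 and for differences of change 6. Leaving out 1 array at a time gave 26 to 28, 1 to 2, 12 to 14 and 6 to 6. With the probe set of highest mean, the calls between stages numbered 22 and those over whole embryo split into 15 up-regulated and 14 down-regulated. That setting turned Bmp5 over whole embryo to -1.25, -1.04 and -1.18 in forelimb and -1.64, -1.46 and -1.53 in hindlimb (E11.5, E12.5 and E13.5), each called down-regulated at the higher-signal probe set, and Bmpr1b in E12.5 hindlimb to -0.076 (adjusted p 0.672 in limma). The calls between the limbs fell to 1 under quantile normalization and to 1 with array quality weights. Quantile normalization ended the calls of Bmp4 in forelimb over whole embryo at E9.5 (0.91), of Bmpr1b in forelimb at E11.5 (0.94), of Bmp7 in forelimb from E12.5 to E13.5 (-0.89) and from E10.5 to E13.5 (-0.96), and of Bmp4 in the change less that of whole embryo (-0.92 and -0.86), and turned no direction. It added calls of Bmp6 in E12.5 hindlimb over whole embryo (-1.03), of Bmp2 from E11.5 to E12.5 in hindlimb (1.03) and from E9.5 to E10.5 in whole embryo (-1.22), and of Bmp5 in the forelimb change less that of whole embryo (1.04). With only the groups compared fitted, 23 calls over whole embryo were made. With genes below the median gene left out, Bmp6 had no value. Replicate numbers were shared by 18 pairs of forelimb and hindlimb arrays. Their deviations correlated at -0.11 to 0.347, 9 of 18 were over 0.1 and 5 of 18 correlated best with their own number, so the numbers were not taken to pair the samples. With the replicate block the counts were 28, 2, 13 and 6, and Bmp6 in E12.5 hindlimb over whole embryo was called (-1.05).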
